A study of Mus musculus with 4 samples.

Results

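The matrix metalloproteinases (Mmp), the ADAMTS proteases and the tissue inhibitors of metalloproteinases (Timp) were followed in the mouse middle ear after inhalation of diesel exhaust particles (DEPs). Members were taken by name, as every probe whose accession belonged to a mouse gene called Mmp, Adamts or Timp with a number. This gave 45 genes with 59 probes, out of 32360 genes and unnamed accessions on the array. They were 22 Mmp genes, 19 Adamts genes and 4 Timp genes. Of the 46 genes of that form in the naming table, Mmp27 alone matched no probe. Male BALB/c mice aged 6 to 10 weeks breathed DEPs for 1 h per day on 5 days and were killed on day 14, and the control ears are described only by their label. The excised areas of temporal bone included the middle ear, so bone, marrow, muscle and nerve could be carried along. On each of 4 arrays, the extract labelled DEP ear carried Cy5 and the one labelled control ear carried Cy3. The dyes were not swapped, so a dye preference of a probe and an effect of exposure cannot be told apart. The study used 9 mice, and how many mice stand behind an extract is not given in the sources used here, so the spread between arrays may be partly technical.

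Matrix metalloproteinases are zinc enzymes that are made as inactive precursors and cut collagens, gelatin, proteoglycans and other proteins outside the cell once their propeptide is removed. The ADAMTS enzymes are related secreted proteases with thrombospondin repeats, and some of them cut the cartilage proteoglycan aggrecan or trim the ends of procollagens. Timp proteins bind the active site of these enzymes and block it. In bone and cartilage Mmp13, Mmp9 and Mmp14 take part in remodelling, while neutrophils store Mmp8 and Mmp9 in granules.

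Many Mmp genes of the mouse lie side by side on chromosome 9, in the order Mmp13, Mmp12, Mmp1b, Mmp3, Mmp1a, Mmp10, Mmp8, Mmp27, Mmp20 and Mmp7. The letters of the AP-1 element, TGANTCA, were searched in the 250 bases before each annotated start in RefSeq promoters of build GRCm38.p6. Promoters were found for 32 genes of the families, 35 promoters in all. AP-1 letters were present in 8 of the 10 clustered genes and in 0 of the 22 other genes. Over all 32851 promoters of this length, 6.75% held them. The TATA letters TATAAA were present in 7 of the 10 clustered genes, in 2 of the 22 others and in 12.4% of all promoters. The letters of the PEA3 element, AGGAAG, were in 14 of the 35 promoters against 29.5% of all. Both strands were searched each time, and in the stretches printed here no match of 1 element overlaps a match of another. The 120 bases before the start are printed for 5 genes of the cluster on the + strand, with the AP-1 letters in capitals: the 3 detected on every array (Mmp13, Mmp3 and Mmp8, the last without AP-1 letters) and, for contrast, 2 with AP-1 letters that were not above background (Mmp10 and Mmp1a).
Mmp13, chr9:7272394-7272513: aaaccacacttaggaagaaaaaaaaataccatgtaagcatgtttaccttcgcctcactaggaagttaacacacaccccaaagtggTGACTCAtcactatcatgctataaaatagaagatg
Mmp3, chr9:7445702-7445821: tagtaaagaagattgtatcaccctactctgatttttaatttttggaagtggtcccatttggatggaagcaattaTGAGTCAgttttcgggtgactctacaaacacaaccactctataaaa
Mmp10, chr9:7502222-7502341: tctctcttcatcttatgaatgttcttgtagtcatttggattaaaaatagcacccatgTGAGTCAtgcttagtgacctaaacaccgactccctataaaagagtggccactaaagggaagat
Mmp1a, chr9:7464021-7464140: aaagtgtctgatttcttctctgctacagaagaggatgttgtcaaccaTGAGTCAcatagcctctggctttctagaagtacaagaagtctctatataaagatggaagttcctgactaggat
Mmp8, chr9:7558309-7558428: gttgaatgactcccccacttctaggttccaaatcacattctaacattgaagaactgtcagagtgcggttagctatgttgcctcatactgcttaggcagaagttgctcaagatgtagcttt

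The AP-1 match began 35 bases before the annotated start in Mmp13, 46 in Mmp3, 63 in Mmp10 and 73 in Mmp1a. In Mmp12 and Mmp7 only 1 of 2 annotated starts had it. The array carried 9 of the clustered genes, and 3 of them, Mmp13, Mmp3 and Mmp8, gave a signal throughout. Of these 3, Mmp8 lacked the letters. Mmp10, Mmp1a, Mmp1b and Mmp20 had them and were not well above background in any channel.

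**Figure D1:**
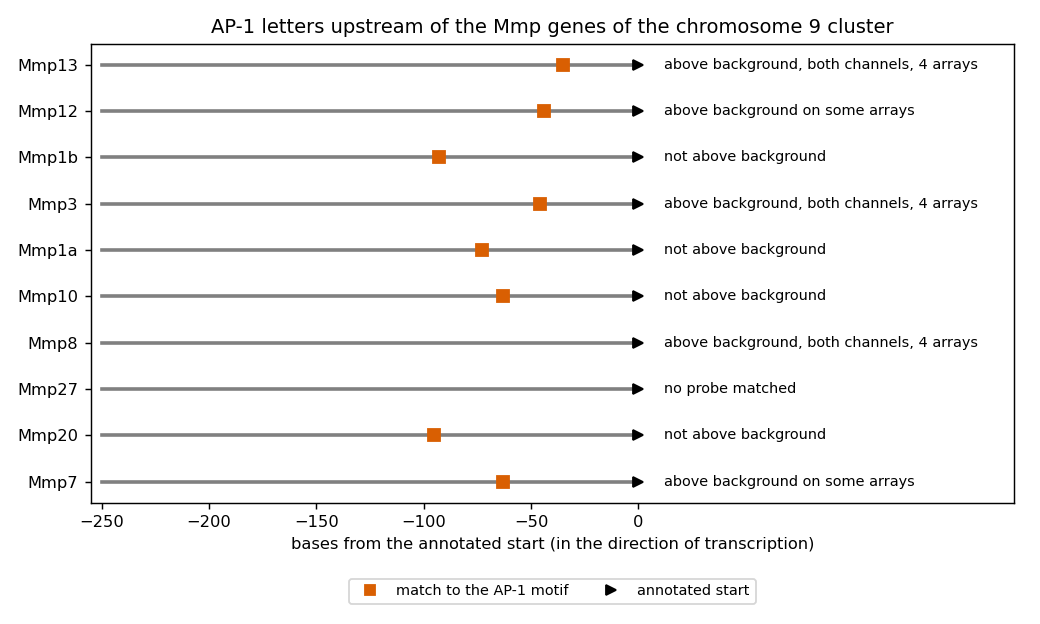
Position of the AP-1 letters (squares) in the 250 bases before the annotated start (arrowhead, 0 on the axis) for the 10 Mmp genes of chromosome 9, in their order on the chromosome, with both annotated starts of Mmp12 and Mmp7 overlaid on 1 line; the text at the right gives detection on the arrays. Matches lie between 35 and 95 bases before the start in 8 genes, and Mmp8 has none although it was measured on all 4 arrays.

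Detection differed widely among the members. By the software's test, 26 of the 45 genes stood well above background in each channel of each array, and these genes are called measured in full. Over the whole array, 18354 of 32360 genes and unnamed accessions were measured in full, so the members were not set apart by this count. For 11 genes no channel was above background on any array: Mmp1a, Mmp1b, Mmp10, Mmp16, Mmp20, Mmp21, Mmp28, Adamts3, Adamts6, Adamts12 and Adamts19. The other 8 (Mmp7, Mmp12, Mmp24, Mmp25, Adamts13, Adamts16, Adamts18 and Adamts20) were measured on some arrays or in 1 channel. A ratio on at least 3 arrays, the condition for a test, was available for 39 of the 45 genes and for 25694 of the 32360 on the array. Mmp1b, Mmp16, Mmp20, Mmp21, Mmp28 and Adamts19 did not meet it. No member probe was saturated. Markers of the labelled tissue were present: 6 of 7 osteoblast and osteocyte markers (all but Bglap) and 5 of 5 epithelial markers were measured in full. So were 5 of 5 neuronal, 9 of 9 neutrophil and 5 of 5 skeletal muscle markers. The ratios of arrays 1 and 4 had a weak negative correlation over all probes (r = -0.22), while arrays 1 and 2 were the most alike (r = 0.61).

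No member passed the test after adjustment, and the members were as often higher as lower in the DEP channel. Ratios are given as log2 of DEP over control signal, by the labels of the channels, so that a positive value is a higher signal in the DEP channel. This direction follows the source names in the sample labels and is opposite to the direction that the study gives for most of the genes in its own lists. The labels are not uniform on this point: both treatments are named beside Cy5 and none beside Cy3, so that only the source names tell the channels apart. The mean ratio was above 0 for 20 of the 39 genes tested and below 0 for 19. Over all 25694 genes tested it was above 0 for 13917 and below 0 for 11777. In the 26 members measured in full the count was 13 and 13, against 9982 and 8372 in the 18354 genes measured in full. The medians were -0.02 for these members and 0.03 for these genes. A mean ratio past 2-fold was reached by 0 members on the higher side, where the background was 2.38% of the 25694 genes tested, and by 4 members on the lower side, Timp4, Mmp24, Mmp12 and Adamts18. These 4 are 10.3% of the members tested, and the background was 4.40%. With limma's moderated test, two-sided, 2 members had an unadjusted p under 0.05 on the higher side (5.13%, background 10%) and 8 on the lower side (20.5%, background 8.66%). Without moderation of the variance these counts were 0 (0%, background 9.44%) and 5 (12.8%, background 6.11%). With the sign of every ratio turned, higher and lower change places in each count, share and rank given here: 8 members (20.5%, background 8.66%) would be past 0.05 on the higher side and 2 (5.13%, background 10%) on the lower side, and among the members measured in full Timp4 would have the highest mean and Mmp9 the lowest. After Benjamini-Hochberg adjustment 0 members and 0 genes of the whole array passed (background 0%), and the smallest adjusted p of any gene was 0.0922. Several of the 8 were dim: Adamts6 and Mmp1a were not well above background in any channel. Among the genes measured in full, 1 member was past 0.05 on the higher side (3.85%, background 6.58%) and 3 on the lower side (11.5%, background 6.07%). Past 2-fold on the lower side stood 1 member, Timp4 (3.85%, background 2.47%).

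The arrays did not move together. The median ratio of the 26 genes was -0.18 on array 1, 0.11 on array 2, -0.27 on array 3 and 0.26 on array 4. On array 3 the ratio was above 0 for 6 of the 26 genes, and on array 4 for 16. Over all genes measured in full the medians of the 4 arrays were -0.01, 0.08, 0.01 and 0.03, close to 0 on each array. The spread between arrays was wide: the median SD of a member was 0.40, against 0.28 over all genes measured in full. The SD exceeded the size of the mean in 20 of 26 members and in 13022 of all 18354 genes measured in full. The same sign on all 4 arrays was found for 1 member on the higher side, Mmp3 (3.85%, background 15.4%), and for 4 on the lower side, Adamts10, Adamts15, Mmp14 and Mmp17 (15.4%, background 10.7%).

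**Figure D2:**
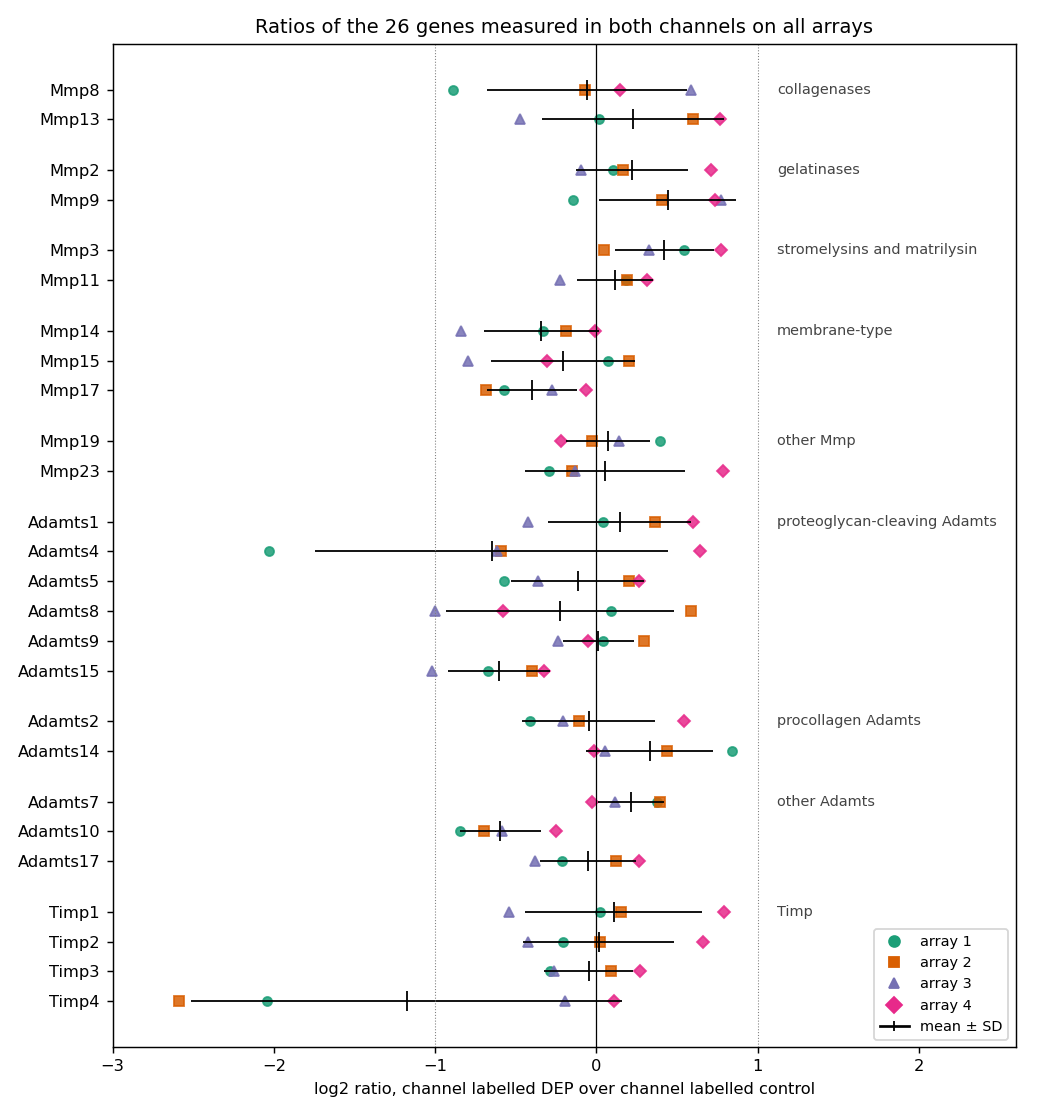
Log2 ratio of the DEP channel over the control channel for the 26 genes measured in full, grouped by role; each symbol is 1 array, the tick and bar are the mean ± SD over 4 arrays, and dotted lines mark 2-fold. Most bars cross 0, Mmp3 lies above it on every array, Adamts10, Adamts15, Mmp14 and Mmp17 lie below it, and the wide bar of Timp4 comes from -2.04 and -2.59 on arrays 1 and 2 against -0.19 and 0.11 on arrays 3 and 4.

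The collagenases cut fibrillar collagen, and the 2 measured in full, Mmp13 and Mmp8, had means of 0.23 and -0.06 with a spread wider than either. Mmp13, the main collagenase of the mouse skeleton, gave DEP signals of 4106, 5138, 2148 and 5558 on arrays 1 to 4 and control signals of 4062, 3395, 2978 and 3267. The signals are in arbitrary units scaled within each array. The DEP channel was higher on arrays 2 and 4, lower on array 3 and about equal on array 1. The mean ratio of Mmp13 was 0.23 ± 0.57 (SD, n = 4; limma SE 0.24, adjusted p = 0.627). It was 0.047 without array 4 and 0.46 without array 3. Mmp8, the neutrophil collagenase, gave ratios of -0.89, -0.07, 0.59 and 0.15, a mean of -0.06 ± 0.62 (SD, n = 4; limma adjusted p = 0.918).

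The gelatinases, which degrade denatured collagen and basement membrane, had means of 0.22 for Mmp2 and 0.44 for Mmp9, and neither passed the test. Mmp2, abundant in fibroblasts, had DEP signals of 6883, 4018, 3614 and 4561 and control signals of 6405, 3588, 3864 and 2787. Its ratios of 0.10, 0.16, -0.10 and 0.71 show that array 4 alone carried most of the mean of 0.22 ± 0.35 (SD, n = 4; limma SE 0.17, adjusted p = 0.504), which was 0.06 without array 4. Mmp9 had DEP signals of 1710, 1823, 989 and 1636 and control signals of 1892, 1373, 579 and 982. The DEP channel was higher on 3 of 4 arrays. The mean ratio of Mmp9 was 0.44 ± 0.43 (SD, n = 4; limma SE 0.19, adjusted p = 0.301), the highest among the members measured in full, and it lay between 0.33 and 0.64 when each array was left out.

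Markers of neutrophils and of other marrow cells were, like Mmp8, lowest on array 1 and highest on array 3. The median ratio of the neutrophil markers on arrays 1 to 4 was -1.13, 0.01, 0.53 and 0.15, over 9 of 9 markers measured in full, and their summed signal ranged from 315115 to 480204 in the DEP channel and from 260030 to 725759 in the control channel. The medians were -0.90, 0.37, 0.50 and 0.23 for the erythroid markers and -0.44, 0.22, 0.44 and 0.23 for the B cell markers (4 of 4 measured in full in each list). Their summed signals ranged from 22603 to 36753 and from 2833 to 3698 in the DEP channel, and from 22261 to 43504 and from 1875 to 4073 in the control channel. Mmp9, with ratios of -0.15, 0.41, 0.77 and 0.74, and Mmp25, a membrane-anchored enzyme of neutrophils, with -0.35, 0.35, 1.60 and 0.39, were also lowest on array 1 and highest on array 3. In whole tissue, fewer cells of a type and less RNA per cell cannot be told apart, and the part of these cell types, or of osteoclasts, whose markers had a median of 0.74 on array 4, in these ratios was not tested. Mmp25 was above background in the DEP channel on 4 arrays and in the control channel on 3. Its mean ratio was 0.50 ± 0.81 (SD, n = 4; limma adjusted p = 0.452), and without array 3 it was 0.13.

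Mmp3, stromelysin 1, which cuts proteoglycans and fibronectin and activates other Mmp precursors, was the only member measured in full with a higher DEP signal on every array. The DEP signals were 510, 324, 439 and 335 and the control signals 350, 314, 350 and 197 on arrays 1 to 4. The ratios were 0.54, 0.05, 0.33 and 0.77, so that array 2 was close to no difference, and across arrays the signals of the channels overlapped. The mean ratio was 0.42 ± 0.31 (SD, n = 4; limma SE 0.15, unadjusted p = 0.041, adjusted p = 0.254). It lay between 0.31 and 0.55 when each array was left out. Mmp11, stromelysin 3, had ratios between -0.23 and 0.31, and its second probe between -0.29 and 0.36. The other members of the class were dim: Mmp10 was not above background, and Mmp7, the epithelial matrilysin, was so in the DEP channel of 1 array only.

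Of the membrane-type enzymes, which act at the cell surface, the 3 measured in full had a lower mean in the DEP channel, and their class median was -0.34, or -0.18 without array 3. Mmp17, a glycosylphosphatidylinositol-anchored enzyme, gave DEP signals of 375, 245, 214 and 217 and control signals of 558, 393, 260 and 228. The DEP signal was the lower one on all 4 arrays, with ratios of -0.57, -0.68, -0.28 and -0.07. Its mean was -0.40 ± 0.28 (SD, n = 4; limma SE 0.15, unadjusted p = 0.041, adjusted p = 0.254). Without arrays 1 and 2 together, left out after the data were seen, the mean of Mmp17 was -0.17. Mmp14, the main activator of pro-Mmp2, gave DEP signals of 522, 452, 340 and 484 against 657, 515, 608 and 488 in the control channel. Its ratios of -0.33, -0.19, -0.84 and -0.01 all lay below 0, array 4 barely. The mean of Mmp14 was -0.34 ± 0.36 (SD, n = 4; limma SE 0.17, adjusted p = 0.341), and without array 3 it was -0.18. Mmp15 had 2 positive and 2 negative ratios, between -0.80 and 0.20.

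Among the proteases that cut proteoglycans, Adamts15 was lower in the DEP channel on every array. Its DEP signals were 482, 398, 394 and 405, and its control signals were 769, 526, 800 and 508, so that every control signal exceeded every DEP signal, although signals are scaled within an array and only the ratios are compared. The ratios were -0.67, -0.40, -1.02 and -0.32. The mean was -0.61 ± 0.32 (SD, n = 4; limma SE 0.16, unadjusted p = 0.0118, adjusted p = 0.176), and it lay between -0.70 and -0.47 when each array was left out. Adamts1 had ratios between -0.42 and 0.60 and Adamts9 between -0.24 and 0.30. For Adamts5, a major aggrecanase of mouse cartilage, the brighter probe lay between -0.57 and 0.26, and the second probe, between -0.56 and -0.08, was below 0 on every array. The 2 probes of Adamts8 disagreed: the brighter one ranged from -1.004 to 0.59 with a mean of -0.23 ± 0.70, and the other ranged from 0.20 to 0.40 with a mean of 0.31 ± 0.10 (SD, n = 4; limma unadjusted p = 0.0306, adjusted p = 0.233). No direction is therefore given for Adamts8.

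Adamts10, which binds fibrillin microfibrils, had the lowest unadjusted p of the members measured in full. The DEP signals were 127, 104, 110 and 110, and the control signals were 228, 168, 165 and 130. The DEP signal was lower on all 4 arrays and the groups of signals did not overlap. The mean ratio was -0.60 ± 0.25 (SD, n = 4; limma SE 0.14, unadjusted p = 0.00777, adjusted p = 0.161), from ratios of -0.84, -0.70, -0.59 and -0.25. With normexp background correction and loess it was -0.34. Adamts2, the procollagen I N-proteinase, had DEP signals of 5075 to 7936 and control signals of 4781 to 10547. Its ratios were -0.41, -0.11, -0.21 and 0.54 and its mean -0.05 ± 0.41 (SD, n = 4; limma adjusted p = 0.906), so no difference was detectable. Adamts14, another procollagen-trimming enzyme, had ratios of 0.84, 0.44, 0.06 and -0.01, with a mean of 0.33 ± 0.39 (SD, n = 4; limma adjusted p = 0.38), which was 0.16 without array 1. Adamts7 ranged from -0.03 to 0.39 and Adamts17 from -0.38 to 0.26. The second probe of Adamts17, above background in the control channel on 2 arrays only, ranged from -0.20 to 0.70 with a mean of 0.39, so no direction is given.

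**Figure D3:**
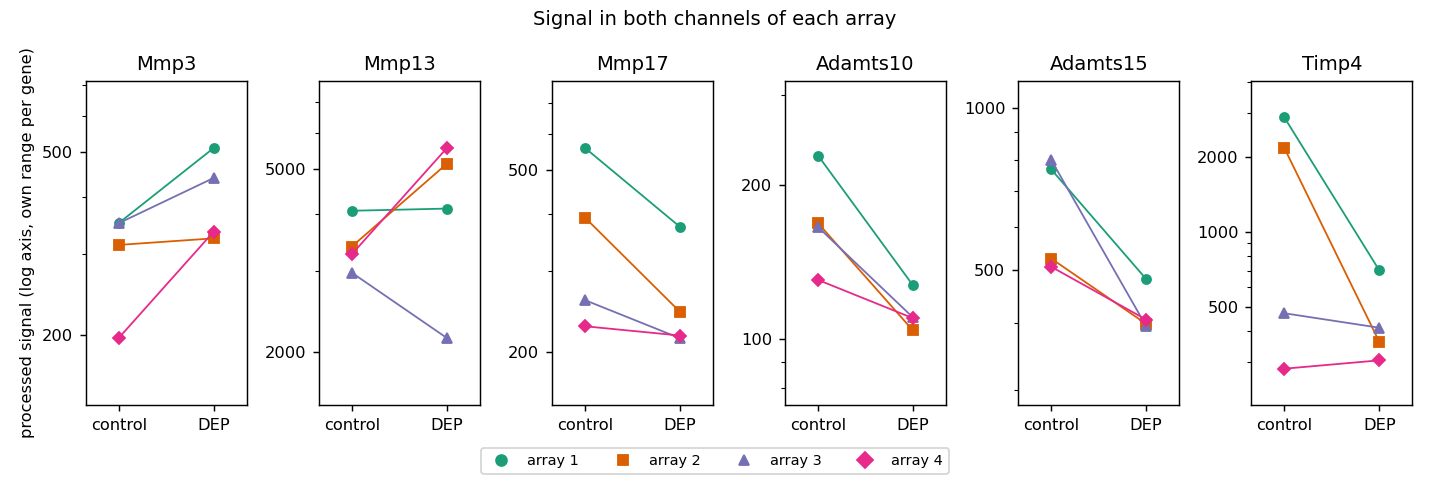
Processed signal in the control and DEP channels of each array (symbols joined by a line per array; log axes, each with its own range) for 6 members. The lines of Mmp3 go up and those of Mmp17, Adamts10 and Adamts15 go down on all 4 arrays, those of Mmp13 go both ways, and Timp4 goes down steeply on arrays 1 and 2 only, from 2889 to 702 and from 2176 to 362.

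Of the 4 inhibitors, Timp1, Timp2 and Timp3 had means near 0. Timp1, an inducible inhibitor, had DEP signals of 3219, 3067, 1823 and 3909 and control signals of 3174, 2757, 2653 and 2259, with ratios of 0.02, 0.15, -0.54 and 0.79. Its mean was 0.11 ± 0.55 (SD, n = 4; limma SE 0.23, adjusted p = 0.824). Timp2, which also helps Mmp14 to activate pro-Mmp2, had ratios of -0.21, 0.02, -0.42 and 0.66 and a mean of 0.01 ± 0.47 (SD, n = 4; limma adjusted p = 0.974), and its second probe had a mean of 0.08. With normexp background correction and median centring Timp2 was 0.79 (limma adjusted p = 0.0555). Timp3, the inhibitor that binds to the matrix and also blocks several ADAMTS enzymes, had ratios of -0.29, 0.09, -0.27 and 0.27 and a mean of -0.05 ± 0.27 (SD, n = 4; limma adjusted p = 0.873). These 3 genes were lower on array 3 and higher on array 4, as were Timp4, Mmp2, Mmp11, Mmp13, Mmp23, Adamts1, Adamts2, Adamts4, Adamts5 and Adamts17. On array 4 the median ratio of the fibroblast markers (6 of 6 measured in full) was 0.68, that of the osteoblast and osteocyte markers (6 of 7) 0.59 and that of the osteoclast markers (5 of 6) 0.74. On array 3 these medians were -0.13, 0.41 and -0.23. The summed signal of the fibroblast markers ranged from 152409 to 224608 in the DEP channel and from 132723 to 307839 in the control channel, and that of the osteoclast markers from 55178 to 112915 and from 64479 to 106005. The osteoblast and osteocyte markers summed to between 22040 and 31969 in the DEP channel and to between 24318 and 35094 in the control channel. Their part in the ratios of these members was not tested.

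Timp4, an inhibitor best known from heart and brain, had the lowest mean ratio of the members measured in full, and its arrays fell into 2 pairs. The DEP signals were 702, 362, 412 and 305, and the control signals were 2889, 2176, 472 and 282. The ratio was -2.04 on array 1 and -2.59 on array 2, where the control channel was far brighter, against -0.19 on array 3 and 0.11 on array 4. The mean was -1.18 ± 1.34 (SD, n = 4; limma SE 0.53, unadjusted p = 0.0763, adjusted p = 0.309), 2.26-fold higher in the control channel. It ranged from -1.61 without array 4 to -0.71 without array 2. Without arrays 1 and 2 together, a check added after the data were seen, it was -0.04.

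Mmp24 was also lowest on arrays 1 and 2, and Adamts4 was lowest on array 1. Mmp24, a membrane-type enzyme known from the nervous system, had DEP signals of 54.1, 36.3, 21.3 and 13.97 and control signals of 343, 259, 21.9 and 20.6. It was above background in the DEP channel on 3 arrays and in the control channel on 2. Its ratios were -2.66, -2.83, -0.04 and -0.56, with a mean of -1.52 ± 1.43 (SD, n = 4; limma unadjusted p = 0.0429, adjusted p = 0.257). It was not past 2-fold with normexp background correction, at -0.75 with loess and -0.95 with median centring. Its second probe gave -0.62, -0.62, 0.04 and -0.17, and the mean of both probes was -0.93. Adamts4, an aggrecanase also made by oligodendrocytes, had ratios of -2.03, -0.59, -0.62 and 0.64 and a mean of -0.65 ± 1.09 (SD, n = 4; limma adjusted p = 0.456), which was -0.19 without array 1. Without arrays 1 and 2 together the mean was -0.30 for Mmp24 and 0.01 for Adamts4.

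Markers of nervous tissue were strongly lower in the DEP channel on arrays 1 and 2. The 5 neuronal markers, all measured in full, had median ratios of -2.83, -1.84, -0.82 and 0.36 on arrays 1 to 4. Their summed signal ranged from 11988 to 14718 in the DEP channel and from 13157 to 56636 in the control channel. The 4 astrocyte markers, all measured in full, had medians of -2.37, -0.85, -0.07 and 0.24, and sums of 3029 to 4274 in the DEP channel and 2631 to 13367 in the control channel. Of 5 cerebellar markers, 4 were tested (Calb1 was not) and 2 were measured in full, with medians of -3.24, -3.75, -0.35 and 0.23. Their sums ranged from 283 to 6115 in the DEP channel and from 241 to 40352 in the control channel. The 5 skeletal muscle markers, all measured in full, were also lower on arrays 1 and 2, with medians of -0.64, -0.54, 0.76 and 0.79 and sums of 175867 to 361247 in the DEP channel and 148959 to 561437 in the control channel. The part of nervous tissue or muscle in the ratios of Timp4, Mmp24 and Adamts4 was not tested. The 5 epithelial markers, all measured in full, had medians of 1.62, 0.27, -0.26 and -0.58 on arrays 1 to 4. By mean ratio 3 of them were higher and 2 lower in the DEP channel, and their part in the members' ratios was not tested either.

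**Figure D4:**
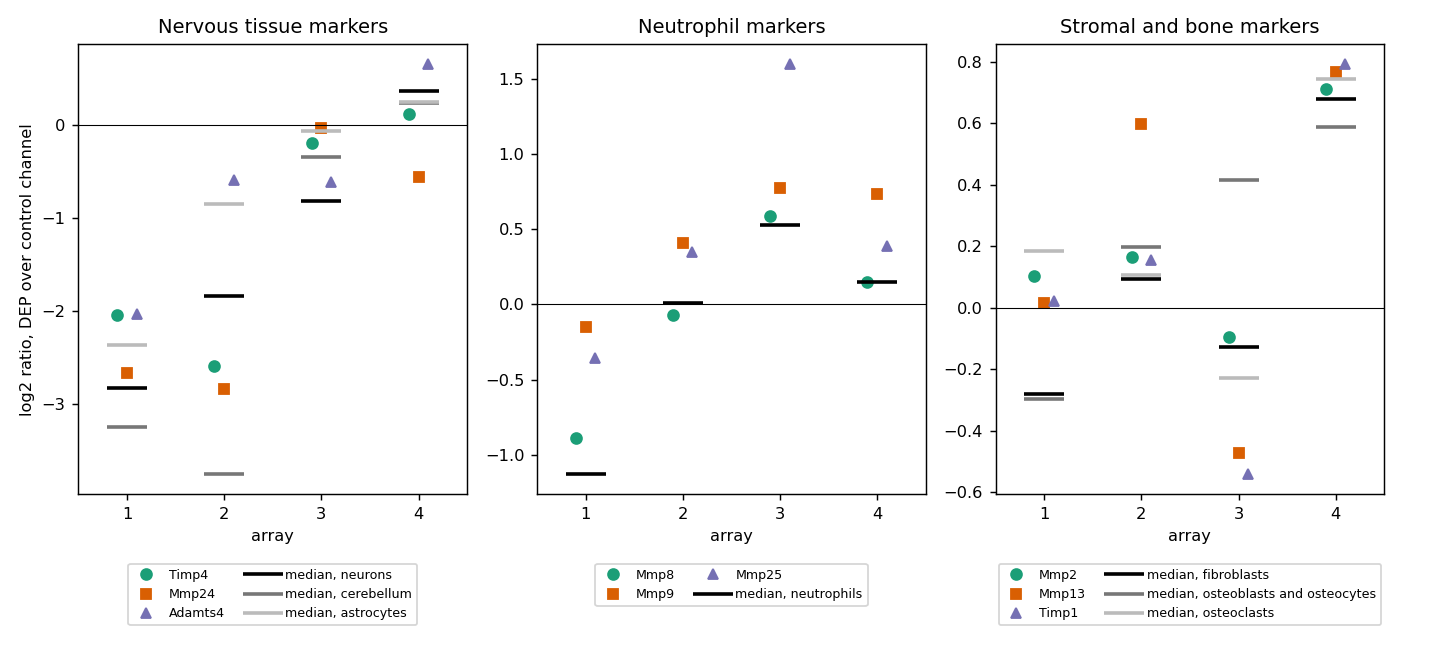
Log2 ratio of the DEP channel over the control channel on each array for single members (symbols) and the median of marker lists (horizontal ticks), in 3 panels with their own vertical range. Timp4 and Mmp24 lie below -2 on arrays 1 and 2 like the cerebellar medians of -3.24 and -3.75, Mmp8 follows the neutrophil median from -0.89 on array 1 to 0.59 on array 3, and Mmp2, Mmp13 and Timp1 are highest on array 4, at 0.71 to 0.79.

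Among members measured on some arrays only, Adamts18 and Mmp12 had the lowest means beside Mmp24. Adamts18, an ADAMTS enzyme of less well known substrates, had DEP signals of 33.1, 20.2, 30.6 and 27.3 against 80.8, 75.0, 53.8 and 37.6, lower on all 4 arrays. Its mean ratio was -1.12 ± 0.62 (SD, n = 4; limma SE 0.26, unadjusted p = 0.00769, adjusted p = 0.16). It was -0.64 without arrays 1 and 2, and with normexp background correction and loess it was -0.38, no longer past 2-fold. Mmp12, the macrophage elastase, had ratios of -0.79, -2.80, -0.42 and -1.14, but was above background on 1 array in each channel, so that its mean of -1.29 ± 1.05 (SD, n = 4; limma adjusted p = 0.226) rests largely on signals near background. Without array 2 it was -0.78, and with normexp background correction it was -0.43 with loess and -0.66 with median centring. The macrophage markers (5 of 6 measured in full, 3 higher and 2 lower by mean) had medians of -0.09, -0.003, 0.11 and 0.64 on arrays 1 to 4. Adamts20 had ratios of -0.01, 0.71, 0.53 and 0.83 at signals of 6.92 to 33.7 and was above background in the DEP channel of 1 array. Adamts6 and Mmp1a, lower on each array with a ratio, were not well above background in any channel, and no fold is given for them.

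The other genes of matrix proteolysis were taken from 5 lists, and 72 of them were tested. None passed after adjustment. An unadjusted p under 0.05 was found for 8 on the higher side (11.1%, against 10% of all genes) and 4 on the lower side (5.56%, against 8.66%), and the median of the 60 measured in full was 0.05. Of the activators and inhibitors, 20 of 22 were tested, with 2 past 0.05 on the higher side (10%, as over all genes) and 3 on the lower side (15%, against 8.66%). Reck, a membrane-anchored inhibitor of several Mmp enzymes, had ratios of 0.40, 0.67, 0.38 and 0.53 and a mean of 0.49 ± 0.13 (SD, n = 4; limma adjusted p = 0.154). Its second probe, also measured in full, gave 0.25, -0.10, -1.01 and -0.40, with a mean of -0.31 ± 0.54 (SD, n = 4; limma adjusted p = 0.494). The probes disagree, so no direction is given for Reck. Plau, the urokinase that generates plasmin, had a mean of 0.47 ± 0.28 (SD, n = 4; limma adjusted p = 0.211) and was higher on all 4 arrays. Bsg, also called the extracellular matrix metalloproteinase inducer, had ratios of -1.08, -0.69, -0.39 and -0.38 (limma adjusted p = 0.173). Spock2, a brain proteoglycan, had ratios of -1.89, -1.28, -0.92 and 0.28 (limma adjusted p = 0.268). Its mean was -0.95, and -0.32 without arrays 1 and 2.

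In the remaining lists the counts were small. Of 12 other metzincin proteases tested, 1 was past 0.05 on each side (8.33%, against 10% and 8.66% of all genes): Adam17, the sheddase of tumour necrosis factor, with a mean of 0.45 ± 0.19 (SD, n = 4; limma adjusted p = 0.186), and Tll1, a procollagen C-proteinase, with a mean of -1.38 ± 1.07 (SD, n = 4; limma adjusted p = 0.212). Tll1 was -0.47 without arrays 1 and 2. Of the 7 Adamts-like genes, 2 were past 0.05 on the higher side (28.6%, against 10% of all genes) and 0 on the lower side, and neither of the 2 was measured in full. Of the 21 substrates, 0 were past 0.05 on either side (0%, against the same shares), and their median was -0.04. Of the 12 inducers, 3 were past 0.05 on the higher side (25%, against the same 10%), and none of these 3 was measured in full. Fos and Jun, subunits of AP-1, had ratios of 3.22 and 1.23 on array 1 and ratios below 0 on the other arrays. Fosl1, another subunit in this list, had ratios of 0.84, -0.86, 0.59 and 0.12. It was above background in the DEP channel on 1 array and in the control channel on 2.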

How the data were processed

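Extracts were hybridised on 4 Agilent 4x44K arrays with 2 dyes. The authors quantified spots with Feature Extraction 10.10.1.1. The deposited intensity values are background-subtracted and dye-normalized within each array, and the deposited log10 ratio of Cy5 over Cy3 is 0 where no ratio was made. The number of arrays limits the precision.

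Ratios were converted to log2. Control spots, flagged spots (164 to 274 per array) and spots without a ratio (6179 to 8558 of 43020) were left out, and spots of a probe were averaged. Probes were named through RefSeq accessions (27655 of 39429 matched). Each gene stands for its probe of highest mean signal. limma 3.58.1 (R 4.3.3) fitted an intercept with lmFit and eBayes to the 31577 probes with ratios on at least 3 arrays, with Benjamini-Hochberg adjustment over all of them. The fit was tested on simulated data.

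Members and lists were chosen with earlier results of these data known. The named genes are every Timp, members measured in full with 1 sign on all arrays or past 2-fold, the 5 of highest signal, and up to 3 genes measured in full, in each direction per list, past an unadjusted p of 0.05. Mmp8, Mmp9, Mmp12, Mmp24, Mmp25, Adamts4 and Adamts18 were added after their values were seen. Other members, among them Adamts8, Adamts14 and Adamts20, and the inducers Fos, Jun and Fosl1 are also given outside this rule. Normexp, an alternative, used median spot signals because mean signals were not used here.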

Additional observations from a re-analysis of the deposited data

Results flagged for a closer look

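Mmp23 had ratios of -0.30, -0.15 and -0.13 on arrays 1 to 3 and 0.79 on array 4, and Dixon's test at 95% sets array 4 apart (gap over range 0.848). It was the only one of 36 genes tested in this way, and chance gives about 1 in 20.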

How the results depend on the processing

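No member passed the test after adjustment in any alternative other than normexp background correction with median centring, where 1 member did, Adamts18 (limma, -0.55, adjusted p = 0.0447; 0.0447 to 0.391 over its alternatives), as did 1546 of all genes. That setting moved the median of all genes measured in full from 0.03 to 0.18 and the count of genes past 2-fold to 264 higher and 288 lower, with 5696 and 3619 genes at an unadjusted p under 0.05. Against that shift, the medians there were 0.37 for Timp, 0.38 for the procollagen-trimming Adamts, 0.25 for inducers and 0.32 for substrates. There 0 members were past 2-fold on the lower side, and 7 were past an unadjusted p of 0.05 on the higher side and 10 on the lower side. In that setting Adamts2 was 0.33, Timp3 0.38 and Mmp8 0.16, all of opposite sign to the reported value, while Mmp13 was 0.50 and the membrane-type median was -0.16. After normexp with loess, 79 genes were past 2-fold higher and 373 lower, with 1 member among the latter. In this setting 3 members were past 0.05 on the higher side and 5 on the lower side, against 1894 and 2252 of all genes. Requiring 1 channel above background throughout left 298 and 517 genes past 2-fold, 1961 and 1330 past 0.05, 2 members past 2-fold and 1 and 4 members past 0.05 (higher and lower). Requiring both channels left 130 and 454 genes, 1529 and 1314 past 0.05, 1 member past 2-fold and 1 and 3 members past 0.05, since fewer genes were tested. With 2-fold on every array, 51 genes were higher and 113 lower, and 0 members were. The share of higher genes among those past 2-fold was 35.1%, and it was 17.5% after normexp with loess, 22.3% with both channels required and 47.8% after normexp with median centring. With the sign of all ratios turned these shares are 64.9%, 82.5%, 77.7% and 52.2%.

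Centring each array on its median, or an intensity trend in eBayes, left 1 member past 0.05 on the higher side and 8 on the lower side. Over all genes these counts were 2283 and 2456 after centring, and 2588 and 2304 with the trend. The test without moderation left 0 members higher and 5 lower. Centring turned Timp2 to -0.0083. With the mean of a gene's probes, the median of the other Adamts class was 0.17, Adamts2 was 0.037 and Reck was 0.090. When 1 array was left out, the genes past 2-fold on the higher side ranged from 589 to 1100 (without array 4), those past 0.05 from 1455 (without array 2; 1627 without array 3) to 2837, the members past 2-fold on the lower side from 2 (without array 2) to 6, and the members past 0.05 on the higher side from 0 (without array 3 or 4) to 2. Means that crossed 0 in this way ranged from -0.24 to 0.074 for Adamts2, from -0.27 to 0.22 for Mmp8, from -0.12 to 0.32 for Timp1, from -0.20 to 0.16 for Timp2 and from -0.15 to 0.033 for Timp3. Also crossing 0 were the means of Adamts1 (-0.0075 to 0.33), Adamts5 (-0.24 to 0.036), Adamts8 (-0.50 to 0.034) and Adamts9 (-0.082 to 0.096). So did those of Adamts17 (-0.16 to 0.058), Mmp19 (-0.036 to 0.17) and Mmp23 (-0.19 to 0.17). Without arrays 1 and 2, chosen after seeing the data, Adamts2 was 0.17, Adamts4 0.013, Mmp8 0.37 and Timp3 0.0027. The cause was not tested for any of these. In all, 278 values, some of them given above, stayed within 1.5 times (counts) or within the spread between arrays (medians), and 353 values of single genes kept their sign and side of the threshold. Medians near 0 did not keep their sign: 24 of 193 values crossed 0, among them 5 of 13 for the members (range -0.14 to 0.11) and 4 of 12 for Timp. Each ratio pairs the 2 extracts of an array, so the pairing is part of every fit.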
